A study of Mus musculus with 12 samples.

Results

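Oxidative phosphorylation is carried out by 5 enzyme complexes of the inner mitochondrial membrane, and 110 of the 54351 genes in the count table were its members here. They were found by symbol: genes of the mitochondrial genome that encode complex subunits, and nuclear genes of the Nduf, Sdh, Uqcr, Cox4 to Cox8 and Atp5 families. The rule reads symbols alone, and 9 rows whose symbol marks a pseudogene were left out. Cox6c2, Ndufa11b, Ndufb4c and Ndufs6b stayed in, although they have no coding transcript in the annotation used. Of the members, 13 were encoded by mitochondrial DNA and 97 by nuclear DNA.

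The groups were leukaemic cells (T-cell acute lymphoblastic leukaemia, T-ALL) of the thymus of overtly sick LN3 transgenic mice, such cells of the spleen, thymocytes of tumour-free wild-type (WT) C57BL/6J mice, and CD8 T cells from WT spleens, with 3 samples each. LN3 organs were dissociated mechanically with no stated sort, and all samples were on a C57BL/6 background. The labels do not name the promoter or the inserted genes behind LN3, nor the age of the mice. The WT CD8 T cells were enriched by negative selection to a stated purity of 85 to 95%, so the spleen comparison sets unsorted tumour-bearing tissue against an enriched T-cell subset, and no unsorted WT spleen was among the 12 libraries. Nothing in the labels ties each sample to its own animal, and the p-values therefore cover only the spread among these samples, which may be technical.

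Complexes I to IV pass electrons from NADH and succinate to oxygen and pump protons across the membrane, except complex II, which pumps none. Complex V, the ATP synthase, lets the protons flow back and makes ATP. Complex II is wholly nuclear encoded, whereas each of the others joins a few subunits made inside the mitochondrion to many imported ones, so that its assembly draws on both genomes. The mitochondrial genes are transcribed from both strands into long precursors by a dedicated polymerase and are cut apart afterwards, and most of the mRNAs receive short poly(A) tails. Thymocytes and leukaemic T cells that divide rely on this machinery for ATP and for recycling the electron carriers that nucleotide synthesis needs.

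Total counts ran from 12694571 to 42483898 per library. T-lineage markers such as Cd3e and Lck were present in every library, with 0 of 10 markers lacking a count in any group. Libraries differed in a way the groups do not explain. Each gene's log2 level was taken relative to its mean over the 12 libraries, and these relative levels were correlated with transcript length across genes. In LN3 thymus 2, LN3 spleen 1, LN3 spleen 3 and WT thymocyte 3 they fell with length (Spearman correlation -0.20, -0.21, -0.15 and -0.15). In the other 8 libraries they rose with it (0.06 to 0.20), so falls and rises are relative to the average library. These 4 libraries are called short-tilted below. Nuclear members have short transcripts, with a median of 681.5 nt against 2216 nt over all 14620 genes tested that have a coding transcript, so the main counts are also given without the short-tilted libraries. WT thymocyte 3 also stood apart by the strongest rise of such relative levels with GC content (0.55). Rises with GC content below are meant in the same sense.

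Taken as a share of all counts, the 13 mitochondrially encoded members took more in LN3 thymus than in WT thymocytes. Counting error moved no share by more than 0.008 percentage points (exact 95% binomial interval). The share was 2.12, 2.41 and 2.82% in the LN3 thymus libraries, against 1.697, 1.11 and 0.937% in WT thymocytes, and these groups did not overlap. In the spleen it was 2.52, 2.75 and 2.82% in LN3 libraries, against 2.18, 2.33 and 2.55% in WT CD8 T cells. There the groups overlapped, and the lowest of the 4 groups was the WT thymocytes. The overlap depended on reads given to near-identical copies of these genes on chromosome 1, described below. With the counts of the copies added, the share was 2.96, 3.03 and 3.19% in LN3 spleen. In WT CD8 T cells it was then 2.23, 2.33 and 2.67%, without overlap. Group means were 2.45 ± 0.355% in LN3 thymus, 2.70 ± 0.159% in LN3 spleen, 1.25 ± 0.398% in WT thymocytes and 2.36 ± 0.186% in WT CD8 T cells (SD, n = 3 each).

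The 97 nuclear encoded members took a smaller share in total, and the group that stood apart was a different one. Their share was 0.775, 0.845 and 0.615% in LN3 thymus, against 0.560, 0.506 and 0.805% in WT thymocytes. It was 0.822, 0.607 and 0.901% in LN3 spleen, against 0.441, 0.479 and 0.445% in WT CD8 T cells. The thymus groups overlapped through WT thymocyte 3, while every LN3 spleen library was above every WT CD8 library. The 4 highest shares of the 12 were those of the 4 short-tilted libraries, and the part of the tilt in these shares was not tested.

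**Figure D1:**
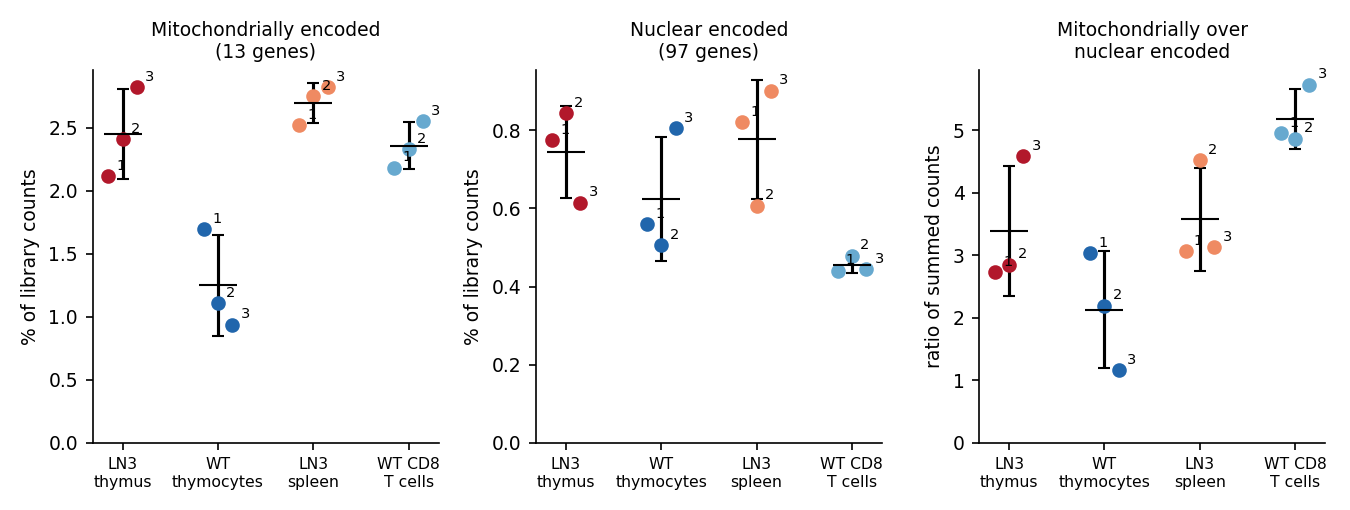
Share of library counts taken by mitochondrially encoded members (left), by nuclear encoded members (middle) and the ratio of the 2 sums (right), in each library. Numbered points are replicates, and bars give the mean and SD of 3 libraries. The mitochondrially encoded share is lowest in WT thymocytes (mean 1.25%), and the nuclear encoded share is lowest in WT CD8 T cells (mean 0.455%).

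The ratio of the 2 sums therefore differed from WT in opposite directions in the 2 comparisons, which also differ in their WT cells. Mitochondrially over nuclear encoded counts were 2.73, 2.85 and 4.59 in LN3 thymus and 3.03, 2.20 and 1.16 in WT thymocytes. In LN3 spleen the ratio was 3.06, 4.53 and 3.13, against 4.96, 4.87 and 5.73 in WT CD8 T cells. The thymus groups overlapped, and all LN3 spleen libraries lay below all WT CD8 libraries. With the chromosome 1 copies added to the mitochondrial sum, the spleen groups overlapped: the log2 ratio was 2.32 in LN3 spleen 2 and 2.28 in WT CD8 2. The mean log2 ratio was then 2.00 in LN3 spleen and 2.40 in WT CD8 T cells, against 1.81 and 2.37 without the copies. As a difference of mean log2 ratios, LN3 thymus was 0.74 above WT thymocytes (1.67-fold) and LN3 spleen was 0.56 below WT CD8 T cells (1.47-fold), a description without a test. Without the short-tilted libraries the thymus difference was 0.46 and the spleen difference -0.19. The highest and the lowest mean both belonged to WT cells, at 5.18 ± 0.476 in CD8 T cells and 2.13 ± 0.935 in thymocytes (SD, n = 3 each). In bulk RNA, fewer cells of a type and less RNA per cell cannot be told apart.

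Per kilobase of transcript the mitochondrial genes were far above the nuclear ones in every group. The median over the 13 genes was 1407 CPM (the count scaled to library size with TMM factors) per kilobase in LN3 thymus, 1263 in LN3 spleen, 648.4 in WT thymocytes and 1356 in WT CD8 T cells. Over the 88 nuclear members tested that have a coding transcript it was 78.7 CPM per kilobase in LN3 thymus, 89.6 in LN3 spleen, 54.2 in WT thymocytes and 37.6 in WT CD8 T cells. Within the mitochondrial genome mt-Co1, a core subunit of complex IV, had the highest level per kilobase in all 4 groups (5606 CPM per kilobase in LN3 thymus), and mt-Atp8 was lowest (215 in LN3 thymus).

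Changes were tested with edgeR's quasi-likelihood test. Genes with a p below 0.05 after Benjamini-Hochberg adjustment across the 20897 genes that passed a filter on low counts are termed called. All 13 mitochondrial members and 89 nuclear members were among those 20897. The other 8 nuclear members, several of them isoforms restricted to tissues such as lung, muscle or testis, were Cox4i2, Cox6c2, Cox7b2, Cox8b, Cox8c, Ndufa11b, Ndufa4l2 and Ndufs6b, with between 0 and 38 counts over the 12 libraries together. Since a member can pass the filter through the group in which it is high, the counts below are over the members that passed.

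In LN3 thymus against WT thymocytes, 9 of 13 mitochondrially encoded members rose and none fell, while 3 of 89 nuclear encoded members rose and none fell. Over all genes tested, 6.06% were called higher and 5.21% lower. The median log2 difference was 1.41 over the mitochondrial members, 0.41 over the nuclear members and -0.04 over all genes. The sign was positive for 13 of 13 mitochondrial and 83 of 89 nuclear members. At an unadjusted p below 0.05, 11 mitochondrial and 14 nuclear members were higher and 0 of both were lower. Counts by sign or by unadjusted p, here and below, have no share over all genes beside them and describe the members alone.

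Complex I, which takes electrons from NADH, has 7 subunits encoded in mitochondrial DNA, and 6 of them rose in LN3 thymus. mt-Nd5 (chrM:11742-13565, plus strand, GRCm38), one of the proton-pumping subunits, had 1360, 1895 and 2068 CPM in LN3 thymus and 821.1, 519.6 and 411.9 CPM in WT thymocytes. Its LN3 libraries were all above its WT libraries, with a log2 difference of 1.60 ± 0.31 (SE) and an adjusted p of 0.0062 (edgeR). It was the mitochondrial member called under all 23 settings tried.

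mt-Nd6 (chrM:13552-14070) is the only protein encoded on the other strand of the molecule. It had 194.1, 308.7 and 345.9 CPM in LN3 thymus and 104.4, 54.1 and 61.4 CPM in WT thymocytes. The groups did not overlap, and the log2 difference of 1.95 ± 0.37 (adjusted p = 0.00527, edgeR) was the highest among the 9 called. The libraries were poly(A)-selected and the strand setting of the counts is not given, and the part of either in the mt-Nd6 level was not tested. mt-Nd1 (chrM:2751-3707), which forms part of the quinone site, had 1254, 2881 and 2680 CPM in LN3 thymus against 801.2, 408.3 and 826.9 CPM in WT thymocytes. Its log2 difference was 1.74 ± 0.39 (adjusted p = 0.0122, edgeR), and LN3 thymus 1 was the lowest of the LN3 libraries. mt-Nd2, mt-Nd4 and mt-Nd4l rose by 1.23, 1.12 and 1.45 on the log2 scale. mt-Nd3 had 43.4, 155.9 and 170 CPM in LN3 thymus and 69.7, 30.2 and 61.9 CPM in WT thymocytes, with overlap between groups and an adjusted p of 0.228.

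Complex III passes electrons from quinol to cytochrome c, and its single mitochondrially encoded subunit is the cytochrome b gene mt-Cytb (chrM:14145-15288). It had 1856, 3712 and 3110 CPM in LN3 thymus and 1589, 921.1 and 752.1 CPM in WT thymocytes. The groups did not overlap, and the log2 difference was 1.41 ± 0.35 (adjusted p = 0.0201, edgeR).

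Complex IV reduces oxygen, and its catalytic core is mt-Co1, mt-Co2 and mt-Co3. mt-Co1 (chrM:5328-6872) had 5425, 11400 and 9160 CPM in LN3 thymus and 5096, 3044 and 4087 CPM in WT thymocytes. Every LN3 library was above every WT one, yet with LN3 thymus 1 close to WT thymocyte 1 the log2 difference of 1.09 ± 0.33 had an adjusted p of 0.0535 (edgeR). mt-Co3 (chrM:8607-9390) rose by 1.21 ± 0.33 (adjusted p = 0.0327). mt-Co2 had a log2 difference of 0.39 ± 0.33, the lowest of the 13, and its groups overlapped.

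Complex V has the proton-channel subunit mt-Atp6 (chrM:7927-8607) and the small mt-Atp8 (chrM:7766-7969), which overlap on 1 transcript. mt-Atp6 had 1829, 3230 and 3613 CPM in LN3 thymus and 1344, 809.8 and 1033 CPM in WT thymocytes, and rose by 1.44 ± 0.34 (adjusted p = 0.0153, edgeR). mt-Atp8 had 23.9, 83.5 and 24.1 CPM in LN3 thymus and 11.7, 1.90 and 10.2 CPM in WT thymocytes. Its log2 difference of 2.47 ± 0.80 was the highest of the 13, with the widest error, and its adjusted p was 0.068. Because overlapping genes share reads, its level rests on how those reads were divided.

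**Figure D2:**
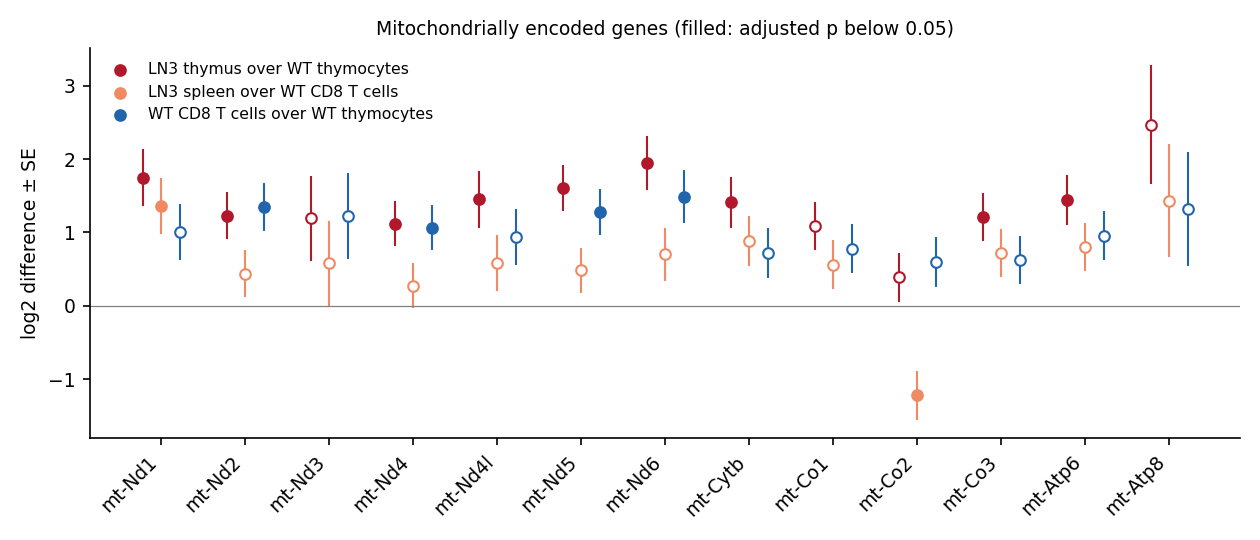
Log2 difference and SE (edgeR) of each mitochondrially encoded gene in LN3 thymus over WT thymocytes, LN3 spleen over WT CD8 T cells and WT CD8 T cells over WT thymocytes; filled points have an adjusted p below 0.05. All 13 lie above 0 in the thymus and the WT comparison, which share the WT thymocytes, and mt-Co2 alone lies below 0 in the spleen.

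The thymus calls rested on few libraries. Without the short-tilted libraries LN3 thymus 2 and WT thymocyte 3 (with LN3 spleen 1 and 3 left out as well), 1 mitochondrial member, mt-Nd5, was called and the median log2 difference was 1.12, with 13 of 13 positive. In that fit 19 of 90 nuclear members were called higher, with a median of 0.58, beside 5.91% of all genes. Leaving out 1 library at a time, 3 mitochondrial members were called without LN3 thymus 2, 4 without LN3 thymus 3, and 3 without WT thymocyte 2. Without WT thymocyte 3 alone 16 nuclear members were called, and without LN3 thymus 2, WT thymocyte 1 or WT thymocyte 2 there was 1. Counts with 1 library left out have no share over all genes beside them and describe the members alone. The calls of mt-Co3 and mt-Nd4 were lost in 6 and 7 of the 12 fits with a library left out.

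Of the nuclear members, Uqcrb, Cox7b and Ndufaf4 rose in LN3 thymus, and all of them also rose in LN3 spleen, where they were 3 of 56 members called. Uqcrb (chr13:66900617-66905378, minus strand) encodes the ubiquinone-binding protein of complex III. It had 27.1, 47.8 and 32.7 CPM in LN3 thymus against 18.5, 15.2 and 14.5 CPM in WT thymocytes, and 45.6, 30.5 and 60.0 CPM in LN3 spleen against 14.0, 15.1 and 17.0 CPM in WT CD8 T cells. Neither pair of groups overlapped, and WT thymocyte 3 was at the level of the other WT libraries. The log2 differences were 1.16 ± 0.30 in the thymus (adjusted p = 0.025) and 1.56 ± 0.30 in the spleen (adjusted p = 0.00225, edgeR).

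Cox7b (chrX:106015700-106022450), a small complex IV subunit, had 47.3, 85.0 and 48.5 CPM in LN3 thymus against 27.7, 20.98 and 28.6 CPM in WT thymocytes. In the spleen it had 79.3, 46.3 and 103.6 CPM in LN3 libraries against 26.5, 28.9 and 30.2 CPM in WT CD8 T cells. Both WT groups were narrow and below all LN3 libraries, and the log2 differences were 1.23 ± 0.32 and 1.42 ± 0.32 (adjusted p = 0.0264 and 0.00561, edgeR).

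Ndufaf4 (chr4:24898083-24905001), an assembly factor of complex I and no part of the finished enzyme, had 23.0, 27.9 and 25.5 CPM in LN3 thymus against 9.26, 10.4 and 5.51 CPM in WT thymocytes. In LN3 spleen it had 27.6, 28.7 and 61.4 CPM, against 14.5, 17.6 and 19.7 CPM in WT CD8 T cells. The groups did not overlap in either organ, and LN3 spleen 3 was the highest library. The log2 differences were 1.60 ± 0.35 and 1.18 ± 0.35 (adjusted p = 0.012 and 0.0213, edgeR). The calls of Uqcrb and Cox7b in the thymus were lost without LN3 thymus 2, WT thymocyte 1 or WT thymocyte 2. The spleen call of Ndufaf4 was lost without LN3 spleen 3, WT CD8 1 or WT CD8 2, and without the short-tilted libraries those of Ndufaf4 and Cox7b were lost (adjusted p = 0.0759 and 0.0539, edgeR).

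The promoters of 2 of these genes are shown because they belong to nuclear members called in both organs and differ in these letters. Matches to GCGCATG, the core of the site of nuclear respiratory factor 1 (NRF1), an activator of respiratory genes, are in capitals, on either strand. Each window is the RefSeq (GRCm38.p6) stretch from 250 bases before to 50 after the gene's start, at chr4:24897833-24898132 (plus strand) for Ndufaf4 and chrX:106015450-106015749 (plus strand) for Cox7b.
Ndufaf4: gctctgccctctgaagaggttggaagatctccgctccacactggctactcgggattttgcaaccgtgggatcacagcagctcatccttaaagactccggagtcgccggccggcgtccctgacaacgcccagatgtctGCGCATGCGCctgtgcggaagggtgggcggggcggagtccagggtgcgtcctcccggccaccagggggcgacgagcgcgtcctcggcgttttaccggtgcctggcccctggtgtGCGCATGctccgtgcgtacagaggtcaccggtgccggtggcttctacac
Cox7b: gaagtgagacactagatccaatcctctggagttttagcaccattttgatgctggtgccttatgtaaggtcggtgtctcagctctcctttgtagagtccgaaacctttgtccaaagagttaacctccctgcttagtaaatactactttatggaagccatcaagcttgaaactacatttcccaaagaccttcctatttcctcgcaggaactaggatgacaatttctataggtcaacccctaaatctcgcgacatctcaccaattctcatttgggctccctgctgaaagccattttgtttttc
The Ndufaf4 window held 3 matches, 2 of which overlap because the first site reads the same on both strands, and the Cox7b window held 0. Across the 81 promoters of the 76 nuclear members with a RefSeq entry, 18.52% held GCGCATG, against 3.91% of all 32851 promoters in the table. The letters CCGGAAG, a site of ETS factors such as GABPA, were in 22.22% of member promoters and 8.86% of all. CCATCTT, a YY1 site, was in 14.81% and 6.34%, and the E-box CACGTG, bound by MYC, in 8.64% and 7.15%. No pair of these 4 motifs was screened for overlap with each other, and a match is a description and no sign of binding.

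In LN3 spleen against WT CD8 T cells most calls were nuclear: 56 of 89 nuclear members rose and none fell, while 1 of 13 mitochondrial members rose and 1 fell. The sign was positive for 12 of 13 mitochondrial members. Over all genes tested, 17.9% were called higher and 13% lower. The median log2 difference was 1.23 over nuclear members, 0.59 over mitochondrial members and -0.11 over all genes. Of the nuclear members 87 of 89 had a positive sign and in 75 all LN3 libraries were above all WT libraries. The share of all genes separated in this way is not given here, so the 75 describe the members alone. At an unadjusted p below 0.05, 68 nuclear members were higher and 0 lower, and 4 mitochondrial members were higher and 1 lower. Without the short-tilted libraries, which leaves LN3 spleen 2 as the only LN3 spleen library and assumes that it varies like the other groups, 27 of 90 nuclear members were called higher, all of them among the 56, beside 11.8% of all genes, and the median was 0.61. By complex these were 10 of 37 in complex I, 3 of 4 in II, 4 of 8 in III, 3 of 16 in IV, 7 of 17 in V and 0 of 8 assembly factors, and 0 of 13 mitochondrial members were called in either direction. Of the genes named below, Ndufaf2, Ndufa4 and Cox6b1 were not called in that fit (adjusted p = 0.181, 0.149 and 0.0525, edgeR).

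**Figure D3:**
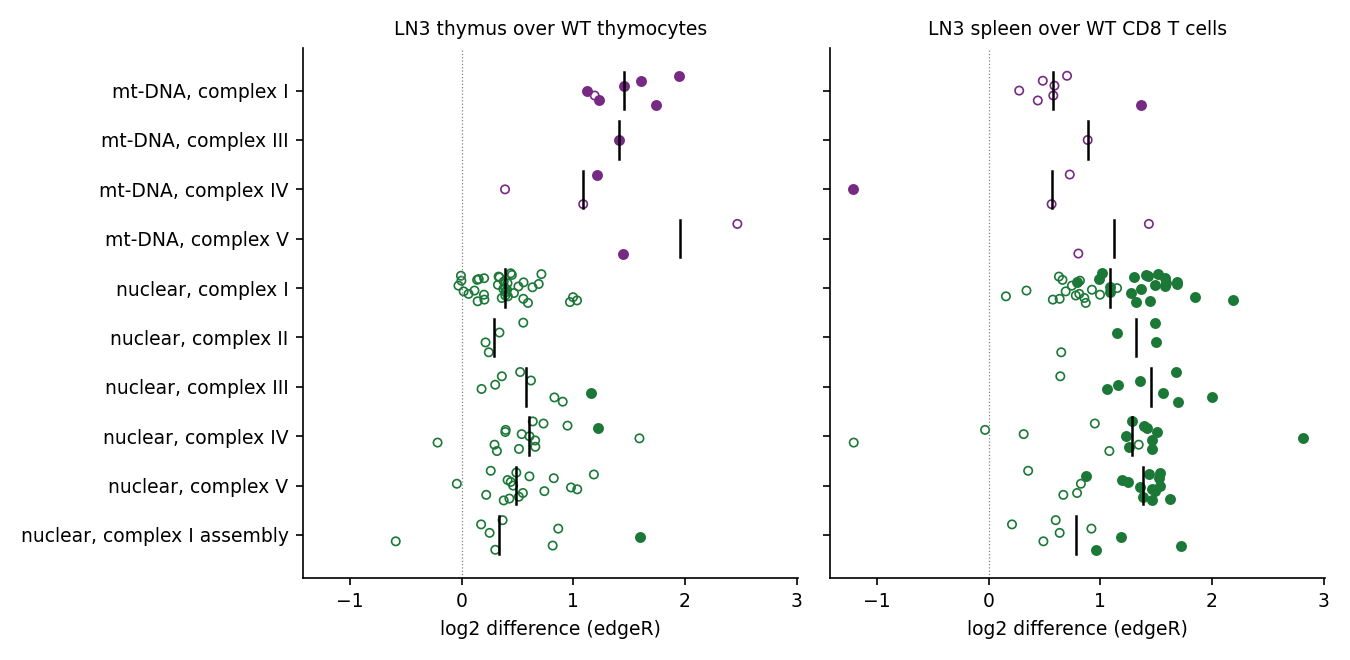
Log2 difference (edgeR) of every member tested, by genome and complex, in LN3 thymus over WT thymocytes (left) and LN3 spleen over WT CD8 T cells (right). Points are genes, filled where the adjusted p is below 0.05, and black lines are medians. In the thymus the filled points are mostly mitochondrial (9 of 13, against 3 of 89 nuclear), and in the spleen mostly nuclear (56 of 89, against 2 of 13).

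Every complex held called nuclear members in the spleen. Of the nuclear complex I members, Ndufb4c among them, 21 of 37 rose, with a median log2 difference of 1.09 over those tested. Ndufa12 (chr10:94198720-94221443), an accessory subunit, had 68.3, 32.1 and 74.0 CPM in LN3 spleen against 12.2, 12.5 and 13.6 CPM in WT CD8 T cells. The WT libraries were nearly equal and LN3 spleen 2 was lowest of the LN3 libraries. Its log2 difference of 2.19 ± 0.41 (adjusted p = 0.00209, edgeR) was kept as a call under all 23 settings. Ndufs5 had 31.6, 18.01 and 31.6 CPM in LN3 spleen against 8.52, 9.52 and 9.11 CPM in WT CD8 T cells, a rise of 1.58 ± 0.37 (adjusted p = 0.00753).

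Complex II, succinate dehydrogenase, has 4 subunits, and 3 rose. Sdha, the flavoprotein that binds succinate, had 345.6, 244.5 and 368.9 CPM in LN3 spleen against 191.3, 216.6 and 203.6 CPM in WT CD8 T cells (log2 0.65 ± 0.28, adjusted p = 0.0954). Sdhb, the iron-sulphur subunit, had 145.4, 80.6 and 172.5 CPM in LN3 spleen against 44.8, 49.8 and 46.1 CPM in WT CD8 T cells, and rose 2.83-fold (adjusted p = 0.0121). The membrane anchors Sdhc and Sdhd rose by 1.15 ± 0.32 and 1.49 ± 0.34 (adjusted p = 0.0177 and 0.00605, edgeR). All 4 subunits had LN3 libraries above WT libraries, and in the thymus their log2 differences lay between 0.21 and 0.55 with 0 of 4 called.

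In complex III, 7 of 8 nuclear members rose, with a median log2 difference of 1.46. The small subunit Uqcr11 had 62.2, 25.9 and 52.2 CPM in LN3 spleen against 12.2, 12.1 and 10.8 CPM in WT CD8 T cells, a rise of 2.00 ± 0.52 (adjusted p = 0.0119, edgeR).

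Complex IV has tissue isoforms, and 9 of the 15 nuclear members tested rose. The common isoforms were the abundant ones: Cox4i1 averaged 273 ± 67.3 CPM in LN3 spleen and 129.1 ± 4.16 CPM in WT CD8 T cells (SD, n = 3 each; log2 1.08, adjusted p = 0.0687). Cox6b1 and Cox7a2 rose 2.76-fold and 2.84-fold (adjusted p = 0.0176 and 0.013, edgeR). Cox6a1 and Cox8a were 1.34 and 0.95 higher on the log2 scale, with adjusted p of 0.0542 and 0.114. Ndufa4, a complex IV subunit despite its name, had 86.2, 46.5 and 104.4 CPM in LN3 spleen against 31.0, 35.7 and 30.7 CPM in WT CD8 T cells, and rose by 1.28 ± 0.35 (adjusted p = 0.0143). Cox7a2l, a supercomplex factor, had 197.1, 183.4 and 184.3 CPM in LN3 spleen against 185.4, 165.4 and 227 CPM in WT CD8 T cells, with a log2 difference of -0.03 ± 0.36.

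Cox6b2, an isoform known from testis, had the largest log2 difference of the tested members in the spleen. It had 13.9, 3.42 and 7.74 CPM in LN3 spleen against 0.820, 2.03 and 0.679 CPM in WT CD8 T cells, and 10.8, 15.9 and 3.61 CPM in LN3 thymus against 3.65, 1.41 and 4.99 CPM in WT thymocytes. The spleen groups did not overlap and the thymus groups did, with log2 differences of 2.81 ± 0.73 (adjusted p = 0.0118) and 1.59 ± 0.70 (adjusted p = 0.176, edgeR). Its spleen call was lost without WT CD8 1 or without the short-tilted libraries (lowest log2 difference 1.53). The muscle isoform Cox7a1 stayed between 0.411 and 1.82 CPM in all libraries. The stress isoforms Cox4i2 and Ndufa4l2 were at or below 0.473 CPM in every library.

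In complex V, 13 of 17 members rose, with a median log2 difference of 1.38. Atp5b, the catalytic beta subunit, had 1531, 831.4 and 1623 CPM in LN3 spleen against 387.2, 479.3 and 430.7 CPM in WT CD8 T cells. The groups were far apart, and the log2 difference of 1.62 ± 0.40 (adjusted p = 0.00962, edgeR) was kept as a call under all 23 settings, between 0.94 and 1.91. In the thymus Atp5b had 1018, 1633 and 790 CPM in LN3 libraries against 660.5, 543.1 and 1356 CPM in WT libraries, with overlap through WT thymocyte 3 and a log2 difference of 0.43 ± 0.39 (adjusted p = 0.562). Of the 8 complex I assembly factors 3 rose, among them Ndufaf2 by 1.73 ± 0.45 (adjusted p = 0.0119) besides Ndufaf4.

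The number of nuclear calls in the spleen moved with single libraries. It was 20 without WT CD8 1, 21 without LN3 spleen 3 and 36 without WT CD8 3, and 67 without WT thymocyte 3. In all of these fits none fell, and the median log2 difference over nuclear members stayed between 1.03 and 1.47 when any LN3 spleen library was left out. The share of all genes called in these fits is not given here, so their counts describe the members alone.

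**Figure D4:**
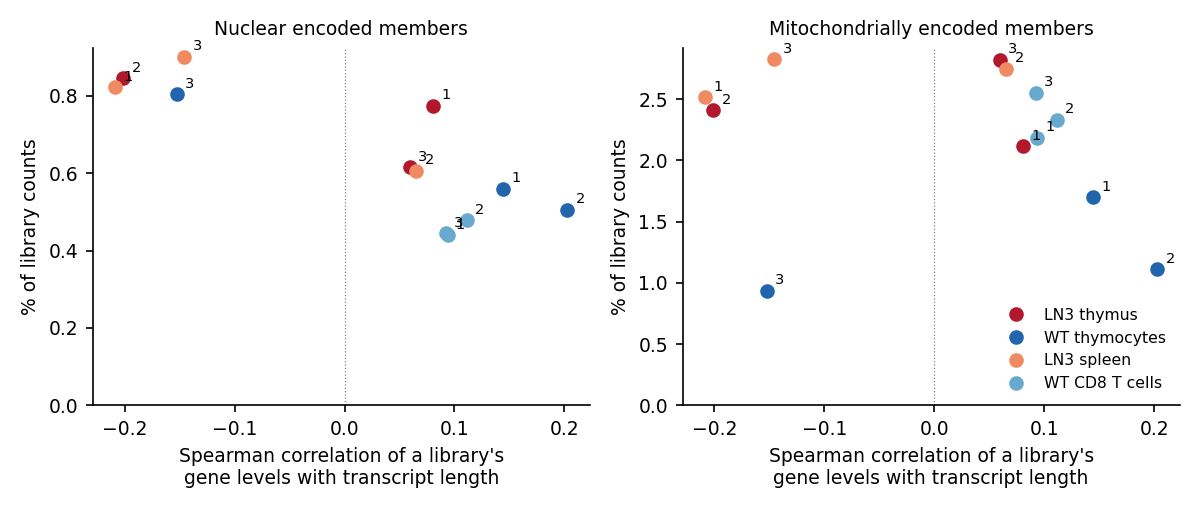
Share of counts taken by nuclear (left) and mitochondrially encoded (right) members in each library, against a Spearman correlation with transcript length. The correlation is that of the library's gene levels, each relative to the gene's mean over the 12 libraries. Numbers are replicates. The 4 libraries left of 0 hold the 4 highest nuclear shares (0.805 to 0.901%), whereas among them the mitochondrial share spans 0.937 to 2.82%.

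The mitochondrial members in the spleen were led by mt-Nd1, with 3346, 2634 and 4523 CPM in LN3 spleen against 1179, 1324 and 1583 CPM in WT CD8 T cells. The groups did not overlap and it rose by 1.36 ± 0.38 (adjusted p = 0.0177, edgeR), a call lost without LN3 spleen 3, WT CD8 1 or WT CD8 2, and without the short-tilted libraries (log2 0.95, adjusted p = 0.209). mt-Cytb was 0.89 ± 0.34 higher on the log2 scale with an adjusted p of 0.0653, and mt-Atp6 0.80 ± 0.33 with 0.0821.

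mt-Co2 was the one member that fell, and the value depends on a nuclear copy of the gene. mt-Co2 (chrM:7013-7696, GRCm38) and the unprocessed pseudogene Gm28661 (chr1:24614885-24615565, minus strand) are identical over 681 bases, so reads inside that stretch cannot be told apart and were divided by the authors' estimation. The ends of both transcripts are shown to give the only bases in which they differ, the last 3 of mt-Co2 (chrM:7634-7696), in capitals. The stretch of the copy lies at chr1:24614885-24614944.
mt-Co2: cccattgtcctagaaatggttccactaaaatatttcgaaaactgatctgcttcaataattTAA
Gm28661: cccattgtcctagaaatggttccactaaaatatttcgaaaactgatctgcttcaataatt
mt-Co2 itself had 665.2, 675.3 and 580.7 CPM in LN3 spleen against 1436, 1647 and 1390 CPM in WT CD8 T cells. These groups did not overlap, with a log2 difference of -1.22 ± 0.34 (adjusted p = 0.0164, edgeR), a call lost without LN3 spleen 3, WT CD8 2 or the short-tilted libraries (adjusted p 0.0655, 0.0513 and 0.173). The copy was given 3935, 2627 and 3991 CPM in LN3 spleen against 268.7, 0.0316 and 987.2 CPM in WT CD8 T cells. With the counts of both added, mt-Co2 had 4601, 3302 and 4572 CPM in LN3 spleen against 1704, 1647 and 2378 CPM in WT CD8 T cells. The direction then reversed to a rise of 1.12 (adjusted p = 0.0371), so the sign of the mt-Co2 difference depended on how reads were divided between gene and copy. In the thymus the sum was 1891, 4692 and 3535 CPM in LN3 libraries against 1422, 725.6 and 1086 CPM in WT thymocytes, where LN3 thymus 1 gave the copy 0.42 CPM and LN3 thymus 2 gave it 3567.

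**Figure D5:**
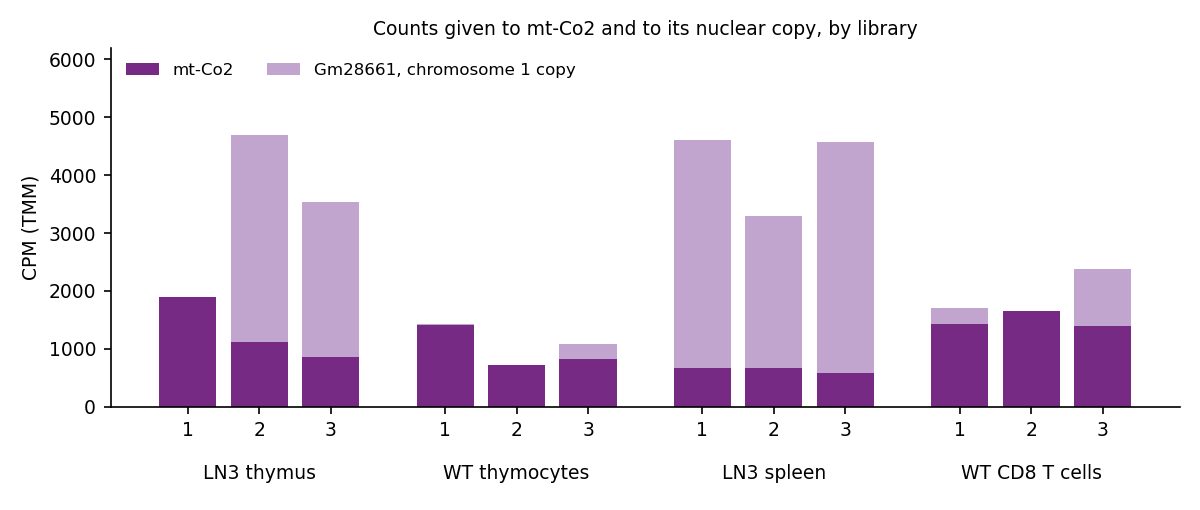
CPM given to mt-Co2 (dark) and to its chromosome 1 copy Gm28661 (light), stacked, in each library. The copy takes more than mt-Co2 in 5 of the 6 LN3 libraries and less in all 6 WT libraries, while the summed height is 1891 to 4692 CPM in LN3 and 725.6 to 2378 CPM in WT libraries.

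6 further mitochondrial members have an annotated copy in the same stretch of chromosome 1, and all 7 copies held between 0.278 and 0.442% of counts in the LN3 spleen libraries, against 0.000134 to 0.116% in WT CD8 T cells. Adding all copies changed the count of mitochondrial members called higher to 11 of 13 in the thymus, now with mt-Co2 and mt-Nd3, and to 2 of 13 in the spleen, mt-Nd1 and mt-Co2. Among nuclear members 20 have a pseudogene copy by alignment (at least 95% identity over at least 150 bases), and the copies held over 10% of the member's own counts for 1 of them, Atp5g2, a complex V c-ring gene whose copy Gm10175 had more counts than the gene.

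Between the LN3 samples of the 2 organs, for which no sort was stated, 0 of 13 mitochondrial and 0 of 89 nuclear members were called with edgeR. The same held with DESeq2 and limma. Over all genes 0.694% were called higher and 0.0287% lower in LN3 spleen than in LN3 thymus (edgeR). At an unadjusted p below 0.05 Cox6a2 was higher (2.12 on the log2 scale, at under 1 CPM in all LN3 libraries) and mt-Co2 lower. The median log2 difference was 0.24 over mitochondrial and 0.19 over nuclear members. This p does not show that the organs had equal levels. For Atp5b the difference was 0.21 ± 0.39, and for mt-Nd5 0.16 ± 0.31. Markers of other cells differed between these organs. In LN3 spleen 4 of 8 erythroid and 1 of 5 NK-cell markers were called higher, with median log2 differences of 6.38 and 2.24. For 8 B-cell and 9 myeloid markers the medians were 3.35 and 1.01, with 0 called. The part of these cells in the member values of this comparison was not tested.

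Between the WT populations the mitochondrial members were higher, and the nuclear members mostly lower, in the CD8 T cells. In WT CD8 T cells against WT thymocytes 4 of 13 mitochondrial members rose (mt-Nd2, mt-Nd4, mt-Nd5 and mt-Nd6, all of complex I), beside 7.24% of all genes higher and 8.49% lower. All 13 had a positive sign, with a median log2 difference of 1.01. mt-Nd2 had 821.2, 836.1 and 1244 CPM in WT CD8 T cells against 463.6, 260 and 416.8 CPM in WT thymocytes, without overlap, and rose by 1.35 ± 0.32 (adjusted p = 0.0137, edgeR). Of the nuclear members 83 of 89 had a negative sign, with a median of -0.49, and 15 were lower at an unadjusted p below 0.05.

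After adjustment 1 nuclear member fell and 1 rose. Ndufs5, an accessory subunit of complex I, had 8.52, 9.52 and 9.11 CPM in WT CD8 T cells against 20.1, 14.2 and 31.3 CPM in WT thymocytes and changed by -1.27 ± 0.37 in log2 (adjusted p = 0.0359). Cox6a2, the heart and muscle isoform, had 3.44, 2.12 and 0.679 CPM in WT CD8 T cells against 0.135, 0.307 and 0.258 CPM in WT thymocytes, a rise of 3.11 ± 0.87 (adjusted p = 0.0291) at a low level. Each of these 2 calls was lost in 5 of the 12 fits with a library left out (adjusted p up to 0.129 for Ndufs5 and 0.116 for Cox6a2), and that of Cox6a2 also without the short-tilted libraries. WT thymocyte 3 carried much of the nuclear difference: without it the median over nuclear members was -0.12, 35 of 89 were positive and 0 were called. With the short-tilted libraries left out it was -0.10, and 1 mitochondrial member, mt-Nd2, was called. Without WT thymocyte 2 or WT CD8 3, 0 mitochondrial members were called, with medians of 0.77 and 0.74. The WT CD8 T cells also held less cycling-marker RNA: all 7 markers fell, with a summed level of 331 to 828 CPM against 1913 to 2584 CPM in WT thymocytes. Markers of other cells were higher in WT CD8 T cells than in WT thymocytes: 5 of 5 NK-cell, 7 of 9 myeloid and 5 of 8 B-cell markers were called, with median log2 differences of 5.18, 3.26 and 2.68. The part of these cells and of cycling in the member values of this comparison was not tested.

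Whether the LN3-WT difference of the spleen differed from that of the thymus was tested as an interaction. Organ and WT cell type (thymocytes or enriched CD8 T cells) change together in it and cannot be told apart. In this interaction 0 of 13 mitochondrial and 0 of 89 nuclear members were called with edgeR. Over all genes 3.29% were called higher and 0.895% lower in it. At an unadjusted p below 0.05, 3 mitochondrial members were lower and 4 nuclear members higher, and DESeq2 called 1 mitochondrial member, mt-Co2, lower. The median was -0.79 over mitochondrial members, 0 of 13 positive, and 0.75 over nuclear members, 84 of 89 positive. Without the short-tilted libraries the mitochondrial median was -0.76 and the nuclear median 0.05. Hence no single member was shown to differ from WT by another amount in the spleen than in the thymus comparison. The contrast between the count of 9 and 3 in the thymus and 1 and 56 in the spleen sets calls beside each other, not tested differences.

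Lists of genes around the complexes were described with the same fit. Assembly factors outside the symbol families (43 genes, among them Coa, Surf1 and Sco genes) gave 0 calls in the thymus, and in the spleen 6 rose and none fell with a median of 0.58. That is 14.0% of the list, below the 17.9% of all genes called higher, and 3 were called without the short-tilted libraries. Cmc2, a copper-linked complex IV factor, had 16.3, 6.69 and 16.1 CPM in LN3 spleen against 3.50, 4.37 and 3.68 CPM in WT CD8 T cells (1.76 ± 0.46, adjusted p = 0.012), a call lost without WT CD8 1 or the short-tilted libraries.

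Of 30 genes that transcribe, replicate or stabilise mitochondrial DNA and RNA, 5 rose and 1 fell in LN3 thymus, and 14 rose and none fell in LN3 spleen. All genes were called higher in 6.06% and lower in 5.21% of tests in the thymus and higher in 17.9% in the spleen, and without the short-tilted libraries 5 of the list rose in each organ. Top1mt, the mitochondrial topoisomerase, had 9.79, 15.2 and 7.60 CPM in LN3 thymus against 1.89, 2.21 and 4.13 CPM in WT thymocytes, and rose by 1.99 ± 0.43 (adjusted p = 0.0106), a call lost without WT thymocyte 1 or 2. Polg, the catalytic subunit of the mitochondrial DNA polymerase, fell to 125, 131.9 and 111.2 CPM in LN3 thymus, against 189.5, 185.1 and 329 CPM in WT thymocytes (adjusted p = 0.0286), a call lost without any of the LN3 thymus libraries or WT CD8 1 (adjusted p 0.0596 to 0.104). Fastkd3, an RNA-binding protein of mitochondrial transcripts, rose in LN3 spleen by 1.66 ± 0.26 (adjusted p = 0.000703, edgeR). Its thymus difference was 0.88 ± 0.26 (adjusted p = 0.0449), past the threshold in the full fit and in 2 of the 12 fits with a library left out (adjusted p up to 0.185 in the others).

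The mitochondrial ribosome translates the 13 mitochondrial messages. Of its 78 proteins 1 rose in LN3 thymus, Mrpl47, and 48 rose in LN3 spleen, with medians of 0.37 and 1.04 and none lower. That is 1.28% of the list in the thymus, below the 6.06% of all genes, and 61.5% in the spleen against 17.9%. In the fit without the short-tilted libraries 9 were called higher in the thymus and 11 in the spleen (14.1%, beside 11.8% of all genes). The thymus call of Mrpl47 was lost in 7 of the 12 fits with a library left out: without any LN3 thymus library, any WT thymocyte library or WT CD8 2 (adjusted p 0.0503 to 0.103). Mrpl12 had 88.7, 51.1 and 117.5 CPM in LN3 spleen against 20.0, 20.5 and 23.5 CPM in WT CD8 T cells, and 59.2, 100.2 and 46.7 CPM in LN3 thymus against 23.4, 19.3 and 66.8 CPM in WT thymocytes, where WT thymocyte 3 again overlapped.

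Of 17 genes of the tricarboxylic acid cycle and pyruvate dehydrogenase, which feed NADH and succinate to the complexes, 1 rose in LN3 thymus (5.88%) and 11 rose in LN3 spleen (64.7%), with none lower. Over all genes 6.06% were called higher and 5.21% lower in the thymus, and 17.9% higher in the spleen. The thymus share of this list was thus near that of all genes. With the short-tilted libraries left out 3 and 10 rose. Idh2 had 179, 144 and 180.2 CPM in LN3 spleen against 34.7, 37.1 and 39.3 CPM in WT CD8 T cells, a rise of 2.18 ± 0.37 (adjusted p = 0.0011), and Suclg2 rose in both organs by 1.57 ± 0.29 and 1.22 ± 0.28. Of 19 genes of cytochrome c and electron entry, 2 rose (Coq2, Coq3) and 1 fell (Sqor) in LN3 thymus, and 8 rose and none fell in LN3 spleen. The shares called higher were 10.5% in the thymus and 42.1% in the spleen. With those libraries left out 4 rose in the thymus and 2 in the spleen. Coq7, which makes ubiquinone, had 19.97, 8.98 and 22.3 CPM in LN3 spleen against 3.17, 5.19 and 2.85 CPM in WT CD8 T cells (2.19 ± 0.50, adjusted p = 0.0064, and 0.0751 without the short-tilted libraries). Sqor, the sulphide quinone oxidoreductase, had 1.76, 3.39 and 1.63 CPM in LN3 thymus against 17.0, 14.4 and 19.6 CPM in WT thymocytes (-2.93 ± 0.60, adjusted p = 0.00838). Of the 7 carriers and channels tested 0 were called in the thymus and 5 rose in the spleen (2 and 3 of 8 without the short-tilted libraries), Vdac1 by 1.91 ± 0.32 (adjusted p = 0.00103).

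Regulators of mitochondrial biogenesis gave few calls: of 15, 3 rose in LN3 thymus and 3 in LN3 spleen, with medians of 0.10 in both. That is 20.0% of the list in each organ, near the 17.9% of all genes called higher in the spleen and above the 6.06% in the thymus, and the counts were 3 and 3 without the short-tilted libraries too. Myc, which activates many growth genes, was called in both, with 245.2, 403.4 and 267.2 CPM in LN3 thymus against 61.1, 45.4 and 92.1 CPM in WT thymocytes, and 321.9, 341.5 and 317.5 CPM in LN3 spleen against 61.7, 85.1 and 85.2 CPM in WT CD8 T cells. Nrf1, whose core site was counted above, had 74.9, 88.4 and 63.5 CPM in LN3 thymus against 105.2, 99.9 and 151 CPM in WT thymocytes, and 87.2, 66.7 and 99.03 CPM in LN3 spleen against 53.6, 52.4 and 55.0 CPM in WT CD8 T cells. Its LN3 libraries were all lower in the thymus and all higher in the spleen (adjusted p = 0.101 and 0.0525), and the difference between organs was called in the interaction (adjusted p = 0.0471, edgeR), as were those of Gabpb1 and the channel gene Vdac1 (adjusted p = 0.0409 and 0.0353). These 3 calls were lost in 10, 11 and 8 of the 12 fits with a library left out (adjusted p up to 0.14 for Nrf1, 0.144 for Gabpb1 and 0.119 for Vdac1), and all 3 without the short-tilted libraries.

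RNA of other cells differed between the spleen groups. The summed level of 8 erythroid genes was 1935 to 6508 CPM in LN3 spleen and 40.1 to 697.9 CPM in WT CD8 T cells, and that of 5 NK-cell genes was 4.50 to 11.9 CPM in LN3 spleen and 135.8 to 406.6 CPM in WT CD8 T cells. The 9 myeloid markers summed to 292.4 to 1462 CPM in LN3 spleen and 302.9 to 3179 CPM in WT CD8 T cells, and the 8 B-cell markers to 286.2 to 2147 CPM and 499.4 to 1431 CPM. The 7 cycling markers, at 3684 to 6021 CPM in LN3 spleen and 331 to 828 CPM in WT CD8 T cells, all rose. In the thymus the cycling sum was 3031 to 3506 CPM in LN3 and 1913 to 2584 CPM in WT, with 0 of 7 called, and the erythroid sum was 9.29 to 142.3 CPM in LN3 and 17.4 to 3939 CPM in WT. No marker gene of these lists was without counts in any group, and the part of these cells and of cycling in the member values was not tested.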

How the data were processed

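RNA of 12 samples was poly(A)-selected and sequenced as directional paired-end libraries, per the labels' protocols. The authors deposited estimated counts per gene; kallisto 0.46.1, FastQC, DESeq2 and the build GRCm38 are named in the submitters' processing notes, while for the annotation release and strand setting the entry is: not given in the sources used here. The estimated counts were whole as deposited in 100% of 652212 values, and were rounded all the same. The authors also deposited log2 values after variance stabilization, which entered 1 alternative only. Members were taken by symbol, with coordinates and lengths from the GRCm38 annotation.

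Groups were compared with edgeR 4.0.16 (R 4.3.3): filterByExpr, TMM factors, 4 group means over all 12 libraries, robust quasi-likelihood test, 8 residual degrees of freedom, Benjamini-Hochberg adjustment over 20897 of 54351 genes (16997 had no count). The common biological coefficient of variation was 0.441. The test was tried on simulated counts first. Alternatives were other scalings, no filter, DESeq2 1.42.0, limma 3.58.1, the replicate number as a block, each library left out, and 3 chosen after seeing the data: without 3 libraries with the strongest rise of levels with GC content, without the 4 short-tilted libraries, and with counts of near-identical copies added. Named genes were all mitochondrial members, isoforms and complex II subunits, and per complex or list the called gene with the largest change. Other genes in the text, such as Nrf1, Gabpb1 and Atp5g2, were chosen after their values were seen. Members and lists were chosen with earlier results of these data known. Library totals ran from 12694571 to 42483898, and a count of 3 was worth 0.0657 to 0.262 CPM. Intervals cover counting error only.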

Additional observations from a re-analysis of the deposited data

Results flagged for a closer look

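The LN3 minus WT difference of the log2 ratio of mitochondrially to nuclear encoded counts had opposite signs in the organs, -0.56 in the spleen and 0.74 in the thymus, 1.292 lower in the spleen (spleen minus thymus -1.292). Without the short-tilted libraries the values were -0.19 in the spleen and 0.46 in the thymus, a gap of -0.65. LN3 spleen was 0.094 above LN3 thymus in the mean log2 ratio, and WT CD8 T cells were 1.387 above WT thymocytes. Organ and WT cell type cannot be told apart in the gap, which was not tested for this ratio.

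Mitochondrial ribosomal RNA lies outside the member rule. It took 0.4327, 0.636 and 0.802% of counts in LN3 spleen against 0.159, 0.13 and 0.105% in WT CD8 T cells, so the lowest LN3 spleen library was above every WT CD8 library. Both genes rose in edgeR's quasi-likelihood test, mt-Rnr1 by 3.03 ± 0.69 and mt-Rnr2 by 2.47 ± 0.59 in log2 (adjusted p = 0.00627 and 0.00797). The level was not particular to the spleen. Their share was 0.0999, 0.465 and 0.661% in LN3 thymus, against 0.188, 0.0938 and 0.161% in WT thymocytes, with overlap through LN3 thymus 1. Neither gene was called in the thymus (adjusted p = 0.0745 and 0.103) or between the LN3 organs (0.852 and 0.837, edgeR). The libraries were poly(A)-selected, and the part of that selection in these ribosomal RNA counts was not tested. These values are from the full fit alone, in which LN3 spleen 1 and LN3 spleen 3 were short-tilted.

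The chromosome 1 copies of mitochondrial genes took 0.2784% of counts in the lowest LN3 spleen library and 0.116% in the highest WT CD8 library. In LN3 thymus they took 0.00708, 0.374 and 0.281%, against 0.013, 0.000835 and 0.0628% in WT thymocytes, with overlap through LN3 thymus 1. Reads inside stretches where copy and member are identical cannot be told apart. The copies cover 31.3% of mt-Co1, 63.6% of mt-Nd4 and at least 99% of the other 5 members, at 99.71 to 100% identity.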

How the results depend on the processing

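With library totals alone in place of TMM factors the median log2 difference of all genes moved to -0.24 in the thymus and -0.51 in the spleen. Of the values for single named genes under the alternatives, 5006 were labelled the same, 198 lost the call and 75 gained it. In 1 the call reversed: mt-Co2 in the spleen, 1.12 with its copy's counts added. These counts follow the call, and differences that were not called could change sign without entering them. Causes were not tested. The counts of calls that follow have no share over all genes beside them here and describe the members alone. In the thymus, nuclear members called higher were 3, against 5 with library totals, 1 with the replicate block, 1 without the 3 libraries of the strongest rise with GC content (GC libraries below), 19 without the short-tilted libraries and 1 to 16 with a library left out. Mitochondrial members called there were 9, against 5 with the block, 1 without the GC, 1 without the short-tilted libraries and 3 to 10 with a library left out. In the spleen, nuclear members called higher were 56, against 27 without the short-tilted libraries and 20 to 67 with a library left out, and 1 was lower (Cox8b) without a filter on low counts. Mitochondrial members called higher there were 1, against 2 with limma, DESeq2, without the GC libraries or with copies added, 0 without the short-tilted libraries, and 0 to 2 with a library left out. The 1 called lower became 0 without the short-tilted libraries or with copies added, and 0 to 1 with a library left out. Between WT cells, nuclear members called higher were 1, against 2 with upper-quartile factors or limma, 0 with the block or without the GC libraries, and 0 to 2 with a library left out. Those called lower were 1, against 4 with totals, 2 with upper-quartile factors or DESeq2, 0 with the block or without the GC libraries, and 0 to 4 with a library left out. Mitochondrial members called higher were 4, against 7 with totals, 2 with the block, 1 without the GC or the short-tilted libraries, and 0 to 5 with a library left out. In the interaction DESeq2 called 1 mitochondrial member lower. The log2 ratio difference was -0.56 in the spleen, -0.19 without the short-tilted libraries, and -0.74 to -0.46 with a library left out. Between LN3 organs it was 0.09, with -0.0881 without LN3 spleen 2, -0.04 without LN3 thymus 1 and -0.0099 without LN3 thymus 2, and -0.0881 to 0.33 in all. It was 0.35 to 1.04 in the thymus and 1.004 to 1.69 between WT cells with a library left out. With the 50 most counted genes left out of totals, the mitochondrial share was 3.07% in LN3 thymus, 3.44% in LN3 spleen, 1.395% in WT thymocytes and 2.66% in WT CD8 T cells.

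The labels number the LN3 leukaemias alike in both organs, but do not say whether equal numbers share an animal. Deviations of same-numbered libraries from their group means correlated at -0.15, -0.53 and -0.04 between LN3 organs. The values were 0.044, 0.0002 and -0.135 between the WT populations, and 0.34, -0.20 and 0.14 between LN3 spleen and WT CD8 T cells. Whether the samples were paired was not settled by these values, and the block was kept as an alternative fit only. Higher correlations joined LN3 libraries of different numbers, 0.46 for LN3 spleen 1 with LN3 thymus 2 and 0.43 for LN3 spleen 2 with LN3 thymus 3. Values as high joined libraries of different genotypes, 0.505 for LN3 thymus 2 with WT thymocyte 3 and 0.434 for LN3 thymus 1 with WT thymocyte 2. Correlations of this kind therefore cannot show which samples share an animal. The labels do not tie these libraries to each other, and the part of this in the comparisons was not tested.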
